A study of Mus musculus with 4 samples.

Results

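A set of 7 genes with known links to blood flow was followed through the cells of the E10.5 mouse heart: *Klf2*, *Klf4*, *Nos3*, *Thbd*, *Piezo1*, *Pkd1* and *Pkd2*. They were chosen by symbol, as 7 of the 32285 genes in the deposited count tables, and each symbol stood once in every table. Hearts of control embryos (labelled Tie2flfl, both *Tie2* alleles floxed and no Cre) and of *Tie2-cko* embryos (Nfatc1Cre;Tie2f/f, the same floxed alleles with Cre knocked into the *Nfatc1* locus) went through 10x single-cell RNA sequencing as 2 libraries of each genotype. The libraries are numbered 5 and 7 (control) and 6 and 8 (*Tie2-cko*, the mutant libraries). The mice had mixed 129 and C57/BL6 ancestry and the embryos were of both sexes. *Nfatc1*-driven Cre acts in the endocardium, so the deletion was aimed at the lining of the heart and not at the myocardium or the vessels. Control embryos carried no Cre, so an effect of the knock-in allele itself and an effect of losing *Tie2* cannot be told apart. By the methods, 2 hearts of each genotype came from 1 litter, and libraries of both genotypes matched by somite number shared a sequencing lane, but which libraries were matched is not given. P-values over these libraries measure only the spread between them, which may be technical.

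Endothelial cells sense the drag of flowing blood at several places. PIEZO1 is a channel that opens when the membrane is stretched, and the polycystins PC1 and PC2, encoded by *Pkd1* and *Pkd2*, form a receptor and channel complex of the primary cilium. Signals of flow pass through the kinases MEKK3, MEK5 and ERK5 to MEF2 factors, which turn on the zinc finger transcription factors KLF2 and KLF4. KLF2 and KLF4 in turn raise *Nos3*, which makes nitric oxide in endothelium, and *Thbd*, whose product thrombomodulin is an anticoagulant receptor. In the embryonic heart *Klf2* is known as a marker of endocardium exposed to fast flow, above all over the endocardial cushions from which the valves form.

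In the GRCm38 annotation (GENCODE M21), *Klf2* lies on the plus strand at chr8:72319033-72321656 with 3 exons, and *Klf4* on the minus strand at chr4:55527143-55532466 with 5 exons. *Nos3* lies at chr5:24364810-24384474 (plus strand, 26 exons), and *Thbd* is a gene of 1 exon at chr2:148404466-148408188 (minus strand). *Piezo1* has 51 exons at chr8:122481698-122551329 (minus strand), *Pkd1* has 46 at chr17:24549834-24596508 (plus strand) and *Pkd2* has 15 at chr5:104459450-104505819 (plus strand). RefSeq promoter windows (GRCm38.p6, 250 bases before to 50 bases after the start) were at hand for 5 of the 7 genes, and *Nos3* and *Thbd* were not among them. The stretches before the annotated starts of both KLF genes are shown because they hold the letters that known regulators of these genes read. In *Klf2* (chr8:72318812-72319032, plus strand) the capitals mark a match to the MEF2 consensus, 118 to 109 bases before the RefSeq start. In *Klf4* (chr4:55532476-55532725, minus strand) the capitals mark the forkhead core TGTTTA, the motif read by FOXO and other forkhead factors, 167 to 162 bases before the start. Both sequences are written 5′ to 3′ in the direction of the gene.
Klf2 promoter: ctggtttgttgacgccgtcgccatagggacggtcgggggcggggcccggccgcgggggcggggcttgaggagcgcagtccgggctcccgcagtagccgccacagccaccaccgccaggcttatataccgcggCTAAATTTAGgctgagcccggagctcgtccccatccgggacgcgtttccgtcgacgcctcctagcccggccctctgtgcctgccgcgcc
Klf4 promoter: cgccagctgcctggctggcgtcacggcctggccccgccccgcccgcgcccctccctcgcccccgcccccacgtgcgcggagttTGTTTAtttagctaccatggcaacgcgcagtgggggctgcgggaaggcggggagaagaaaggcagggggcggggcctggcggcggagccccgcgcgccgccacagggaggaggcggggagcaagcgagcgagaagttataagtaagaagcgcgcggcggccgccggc
Of the 32851 promoter windows in the table, 0.557% held a MEF2 match, 13.4% held TGTTTA and 57.5% held CACCC, the box read by KLF factors, each searched on both strands. A CACCC box on either strand was also found in the windows of *Klf2* (19 to 15 bases before the start), *Piezo1* and *Pkd2* (both 96 to 92 bases before it), and the window of *Pkd1* held no match to these 3 motifs. These matches describe the letters of the windows and no binding was measured.

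The tables held 8877 to 18488 barcodes per library with 169361996 to 259775540 UMIs (single counted RNA molecules), and 33419 cells were kept, 5684 to 10097 per library. The median kept cell had 14878 to 25875 UMIs. Pairs of libraries shared 29 to 62 barcodes, at most 0.521% of the smaller library. Among 26 clusters, built without the 7 genes and their pathway genes, 1568 cells were chamber endocardial cells (EdCs), 1257 were cushion EdCs and 301 were vascular endothelial cells (ECs), with 12594 cardiomyocytes (CMs), 3200 mesenchymal cells (MCs) and 1550 epicardial cells. The 4 chamber markers summed to 8.43 to 9.76 UMIs per 10000 in chamber EdCs against 1.61 to 1.89 in cushion EdCs, and the 6 cushion markers to 8.93 to 9.89 in cushion EdCs against 2.08 to 2.49 in chamber EdCs. MCs held more of the cushion markers (14.7 to 15.8). The 7 vascular markers summed to 7.08 to 9.42 in vascular ECs against 1.19 to 1.79 in both kinds of EdC, although vascular ECs also held chamber markers (5.15 to 8.35). Free haemoglobin RNA differed between libraries, with red blood cell markers in chamber EdCs at 76.3 and 33.2 in libraries 5 and 7 and at 12.9 and 12.1 in mutant libraries 6 and 8. *Xist*, expressed from the inactive X chromosome of female cells, was counted in the endothelial cells of library 5 alone (0.907 in chamber EdCs), while the Y-linked *Ddx3y* was found in all 4 libraries.

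*Klf2* was highest in cushion EdCs in every library. Levels are given as the mean over cells of UMIs per 10000, and levels of different genes are not compared, since only the ends of transcripts were counted. The *Klf2* level of cushion EdCs was 8.18 and 8.13 in libraries 5 and 7 and 8.48 and 8.43 in mutant libraries 6 and 8. Chamber EdCs held 1.54, 1.84, 1.67 and 2.64 in the same order, and vascular ECs held 1.36, 1.67, 1.67 and 1.66. The cushion level was thus above every chamber and vascular level, and the within-library ratio of cushion to chamber EdCs was 4.50 ± 0.952 (SD, n = 4 libraries), lowest in library 8 at 3.19. Vascular ECs lay below chamber EdCs in 4 of 4 libraries, but their ranges overlapped and in library 6 the ratio was 0.999.

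Outside the endothelium, *Klf2* fell off in steps. Macrophages or megakaryocytes, which also use KLF2, came next with 0.569 to 2.39 and overlapped the vascular range, the 2.39 coming from library 7 with 26 such cells. MCs held 0.416 ± 0.0652 and epicardial cells 0.394 ± 0.109, which overlapped, and CMs held 0.114 ± 0.00862 (SD, n = 4), below every MC and epicardial level. Red blood cells held 0.00681 to 0.0556, and how much of this was free RNA was not tested.

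**Figure D1:**
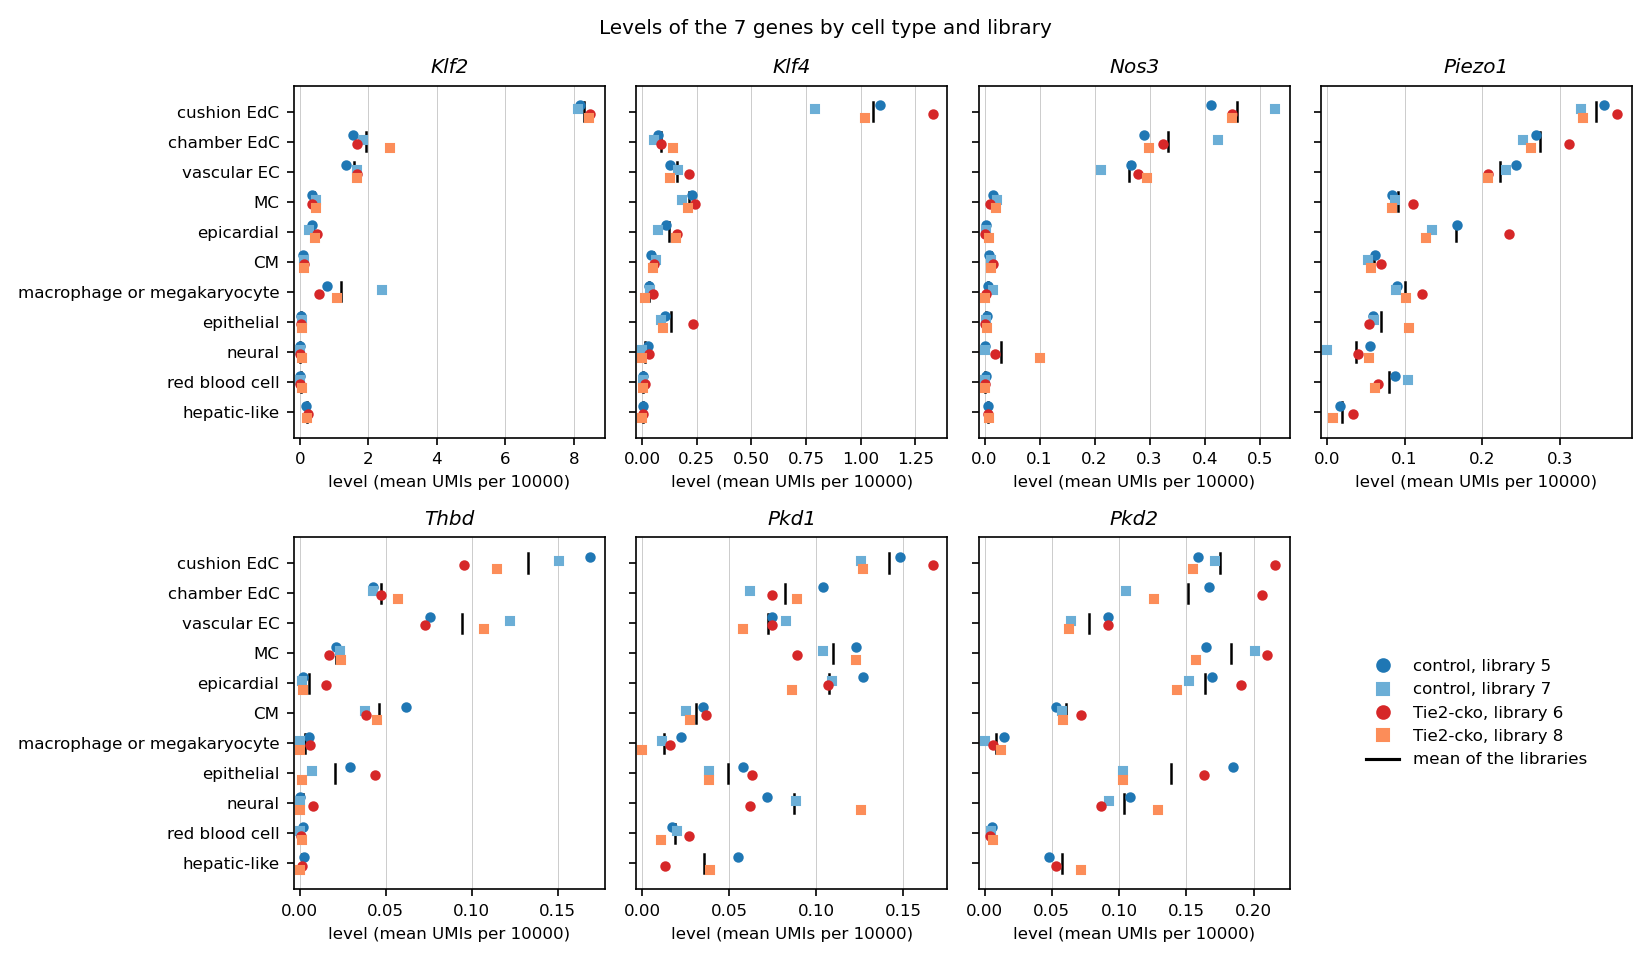
Levels of the 7 genes in 11 cell types. Each point is the mean over the cells of 1 library of UMIs per 10000 (x axis, a scale of its own for each gene), blue for control and red or orange for *Tie2-cko*, and the black bar is the mean of the libraries. *Klf2* and *Klf4* of cushion EdCs lie apart from every other type, while *Pkd2* of MCs, cushion EdCs and epicardial cells overlaps.

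*Klf4* was also highest in cushion EdCs, but its order below them differed from that of *Klf2*. Cushion EdCs held 1.09 and 0.792 in libraries 5 and 7 and 1.33 and 1.02 in mutant libraries 6 and 8, and chamber EdCs held 0.0743, 0.0525, 0.0882 and 0.139. Every cushion value lay above every chamber value, and the within-library ratio was 13.0 ± 3.83 (SD, n = 4), again lowest in library 8 (7.30). MCs stood second with 0.216 ± 0.0263, above vascular ECs in 4 of 4 libraries although the ranges overlapped, and chamber EdCs stood only sixth of 11 types. Chamber EdCs and vascular ECs did not differ beyond their spread (ratio 2.07 ± 0.966, vascular ECs higher in 3 of 4 libraries).

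The difference between cushion and chamber EdCs was one of both the share of cells with a UMI and the number of UMIs per cell. Each cell was thinned to 5500 UMIs to even out depth, and shallower cells were left out. Thinned *Klf2* shares were 78.5% and 73.2% of cushion EdCs in libraries 5 and 7 and 74.4% and 75.5% in mutant libraries 6 and 8. In chamber EdCs they were 40.1%, 46.4%, 44.0% and 49.7%, and in vascular ECs 33.7%, 40.0%, 38.3% and 40.7%. The same share was 4.09% to 6.19% in CMs and 0.414% to 2.34% in red blood cells, so the endothelial shares were far above both. Without thinning, 81.3% to 87.3% of cushion EdCs and 58.0% to 63.6% of chamber EdCs held a *Klf2* UMI. Between 33.6% and 37.9% of thinned cushion EdCs held 5 or more *Klf2* UMIs, and the highest cell of each library held 26 to 34.

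For *Klf4*, the thinned share was 33.5% and 27.7% of cushion EdCs in libraries 5 and 7 and 36.8% and 33.7% in mutant libraries 6 and 8. The chamber share was 4.48%, 2.56%, 3.20% and 5.57%, close to the 2.48% to 2.85% of CMs and above the 0 to 0.265% of red blood cells. In cushion EdCs most cells with a *Klf4* UMI also held *Klf2*, 88.5%, 88.0%, 97.8% and 91.4% in libraries 5, 7, 6 and 8, against 73.2% to 78.5% of all thinned cushion EdCs with *Klf2*. A cell with more *Klf2* is not a replicate of a condition, and this overlap is given as a description only.

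**Figure D2:**
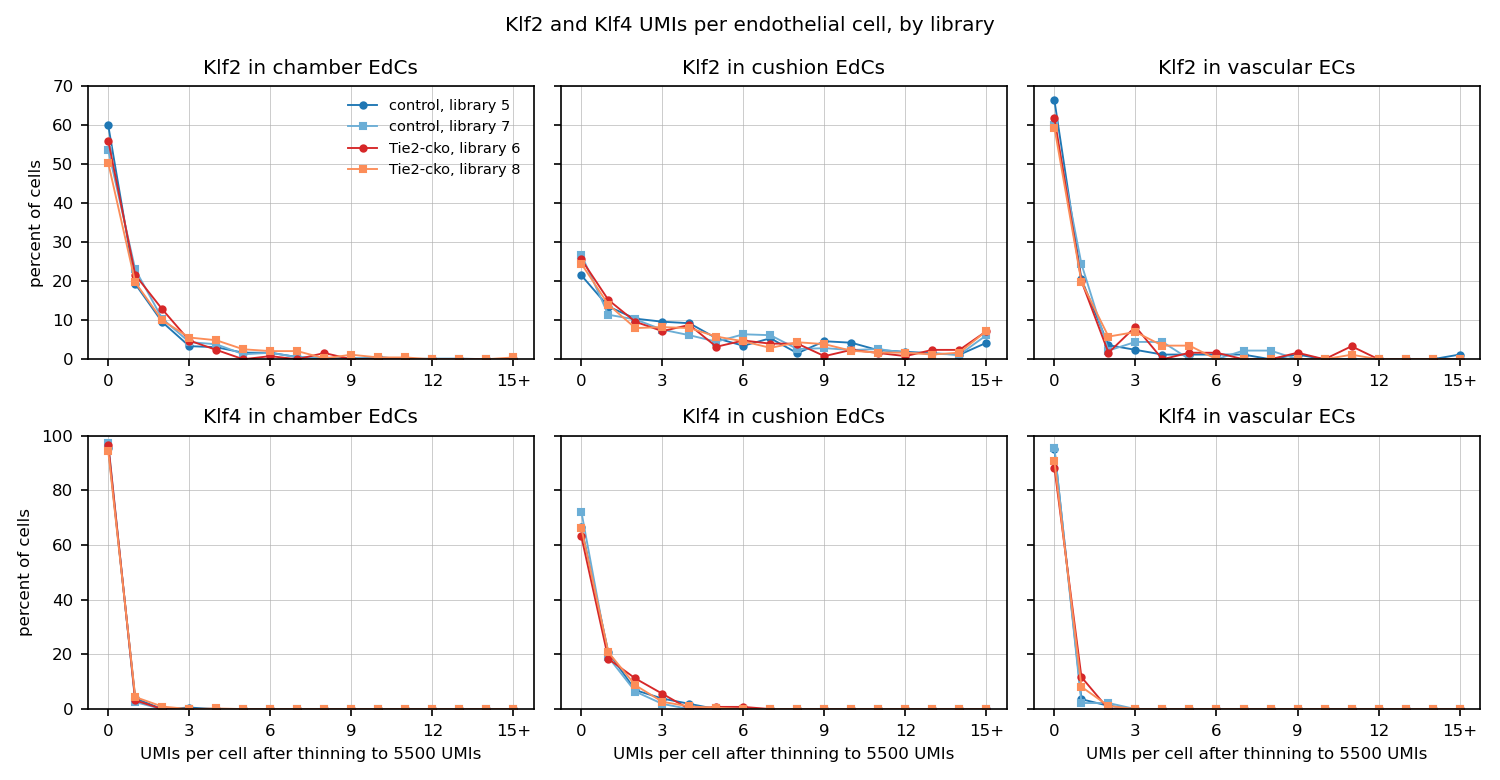
Percent of cells (y axis) by number of *Klf2* UMIs (top) and *Klf4* UMIs (bottom) after thinning each cell to 5500 UMIs, in chamber EdCs, cushion EdCs and vascular ECs, with 1 line per library. The cushion lines for *Klf2* start at 21.5% to 26.8% of cells with 0 UMIs and reach 4.23% to 7.26% of cells with 15 or more.

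*Nos3*, the endothelial nitric oxide synthase, was nearly confined to the 3 endothelial types, among the types measured. Cushion EdCs held 0.411 and 0.528 in libraries 5 and 7 and 0.449 and 0.449 in mutant libraries 6 and 8, chamber EdCs held 0.290, 0.424, 0.324 and 0.298, and vascular ECs held 0.212 to 0.295. Cushion was above chamber in 4 of 4 libraries (ratio 1.39 ± 0.109), though the ranges overlapped because library 7 was the highest in both. CMs held at most 0.0159 and MCs at most 0.0233, and no thinned red blood cell held a *Nos3* UMI, with exact upper limits of 0.326% to 2.13% per library. A single neural value of 0.101 in library 8 came from 19 cells.

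*Thbd* had a different order, with vascular ECs above chamber EdCs. It was 0.169 and 0.151 in cushion EdCs of libraries 5 and 7 and 0.0956 and 0.115 in mutant libraries 6 and 8. Vascular ECs held 0.0760, 0.122, 0.0727 and 0.107, and chamber EdCs held 0.0426, 0.0425, 0.0471 and 0.0571. Vascular ECs exceeded chamber EdCs in 4 of 4 libraries (ratio 2.02 ± 0.582), and cushion EdCs exceeded chamber EdCs by 2.89 ± 1.02 times (SD, n = 4). This SD spans both genotypes, since the cushion to chamber ratio was 3.96 and 3.57 in libraries 5 and 7 and 2.03 and 2.01 in mutant libraries 6 and 8. CMs as a whole held as much as chamber EdCs (0.0458 ± 0.0111 against 0.0473 ± 0.00688). It was highest in the CM cluster led by *Stard10*, which held 0.145 to 0.209 in the 4 libraries. The CM cluster led by *Shox2*, *Gal* and *Bmp2* held 0.152 in library 5, inside that range, and 0.0357 to 0.0839 in the others, while the other 3 CM clusters held at most 0.0178 in any library.

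The shear sensors were also found outside the endothelium. *Piezo1* was 0.357 and 0.327 in cushion EdCs of libraries 5 and 7 and 0.374 and 0.330 in mutant libraries 6 and 8. Chamber EdCs held 0.269, 0.252, 0.311 and 0.263, below every cushion value, and vascular ECs held 0.207 to 0.244, below every chamber value. This order of cushion, chamber and vascular cells therefore held without overlap, with ratios of 1.27 ± 0.0541 for cushion over chamber and 0.819 ± 0.117 for vascular over chamber. Red blood cells, in which PIEZO1 is known to act, held 0.0800 ± 0.0203, and 3.52% to 6.57% of their thinned cells had a *Piezo1* UMI.

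*Pkd1* was 0.148 and 0.126 in cushion EdCs of libraries 5 and 7 and 0.167 and 0.127 in mutant libraries 6 and 8, above chamber EdCs in 4 of 4 libraries (0.0617 to 0.104, ratio 1.78 ± 0.422). MCs (0.110 ± 0.0165) and epicardial cells (0.107 ± 0.0167) followed. Neural cells (0.0870 ± 0.0283) and chamber EdCs (0.0824 ± 0.0184) came next with overlapping ranges, neural cells being higher in 2 of 4 libraries. *Pkd2* had no endothelial peak. MCs led with 0.183 ± 0.0260, cushion EdCs held 0.175 ± 0.0282, epicardial cells 0.164 ± 0.0210 and chamber EdCs 0.151 ± 0.0446, all with overlapping ranges. Vascular ECs held 0.0777 ± 0.0164, below chamber EdCs in 4 of 4 libraries (ratio 0.526 ± 0.0692), and CMs held 0.0604 ± 0.00798. Both polycystin genes were thus found in all 3 endothelial types, with mean levels in MCs and epicardial cells above those of chamber EdCs.

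Within CMs and MCs, *Klf2* differed between clusters. The CM cluster led by *Mybpc1*, *Bmp4* and *Rspo3* held 0.213 to 0.333 in the 4 libraries and that led by *Shox2*, *Gal* and *Bmp2* held 0.120 to 0.219, while the other 3 CM clusters held 0.0393 to 0.0914. The immediate early gene *Fos* moved with them, at 1.3 and 1.67 over all cells of the first 2 clusters and 0.256 to 0.748 in the others, and its part in the result was not tested. Among MC clusters, the 2 with *Twist1*, *Rtn1* and *Col9a3* among their leading genes held 0.397 to 0.627, and the one led by *Stmn4*, *Postn* and *Inhba* held 0.0149 to 0.118. The first 2 also held more *Cdh5* (0.109 and 0.0926 against 0.0172 over all cells), a gene of endothelial junctions, and its part in the result was not tested.

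The pathway around the 7 genes was compared between cushion and chamber EdCs in the same way, over the 9392 genes with a mean level of at least 0.05 over both types. Of these, 39.3% were higher in cushion EdCs in all 4 libraries and 19.3% were lower in all 4. Of the 7 genes, 6 were higher in all 4 and *Pkd2* in 3. A gene below 0.05 in chamber EdCs entered this comparison only through its cushion level, as *Thbd* did, so counts are also given for genes with at least 0.05 in each type. Of those 8837 genes, 38.4% were higher in all 4 libraries and 19.1% lower, with a median log2 ratio of 0.107. By ratio, *Klf4* ranked 15 and *Klf2* 100 of the 9392, *Thbd* 298, *Pkd1* 866, *Nos3* 1907, *Piezo1* 2774 and *Pkd2* 3629. The cushion and chamber clusters had like depth (median 13141 and 13004 UMIs per cell). The 12 immediate early genes, which cells also turn on when dissociated, summed to at least 8.80 in cushion EdCs of every library and to 3.62 to 6.05 in chamber EdCs, and 11 of the 12 were higher in cushion EdCs in all 4 libraries (10 of 11 with the minimum in each type). The 8 mesenchymal markers, of which *Twist1* and *Postn* are also cushion markers, summed to 4.04 to 4.69 in cushion EdCs and 0.967 to 1.46 in chamber EdCs. The 5 neural markers, of which *Stmn2* was among the leading genes of the cushion cluster, summed to at least 2.19 in cushion EdCs and to 0.0849 to 0.122 in chamber EdCs. The part of these 3 lists in the differences was not tested.

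Most of the KLF family stood with *Klf2* and *Klf4*, which, like the others of the 7 genes, are counted in the lists they belong to. Of 10 family members compared, 9 were higher in cushion EdCs in all 4 libraries, with a median log2 ratio (levels plus 0.01) of 1.15 against 0.117 over all genes compared. *Klf9* and *Klf11* entered only through their cushion level, and with the minimum in each type 7 of 8 were higher (median 1.02). *Klf3* held a mean of 1.52 against 0.695 in chamber EdCs, *Klf13* 0.852 against 0.457 and *Klf7* 0.588 against 0.461. Of 8 genes reported as raised by KLF2 or KLF4, 6 were higher in all 4 libraries (median 1.59), but 3 of them (*Aqp1*, *Adamts5* and *Thbd*) entered only through their cushion level. With the minimum in each type 3 of 5 were higher (median 0.625), *Nos3*, *Cdkn1a* and *Ass1*, which makes the precursor of arginine for nitric oxide (0.313 against 0.0740). *S1pr1*, the sphingosine 1-phosphate receptor, was not (0.654 against 0.615). *Tek*, the gene deleted in the mutant libraries, is also counted in this list. It was higher in 3 libraries, and the median of 0.625 is its own log2 ratio. Named after their values were seen were *Klf9*, *Klf11*, *Adamts5*, the water channel *Aqp1* (0.383 against 0.0293), the cell cycle inhibitor *Cdkn1a* (0.388 against 0.0609) and, below the minimum level for the comparison, the ligand *Wnt9b*, which held 0.0771 in cushion EdCs and was at 0 in chamber EdCs of 3 libraries.

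Upstream genes were mixed. Of 13 shear sensor genes, 7 were higher and 4 lower in cushion EdCs in all 4 libraries (median log2 ratio 0.274). Over all genes compared these shares were 39.3% and 19.3%. *Pecam1* was higher (2.41 against 1.89), and its partners in the junctional flow sensor, *Cdh5* (1.78 against 2.14) and the VEGF receptor *Kdr* (0.525 against 1.78), were lower. Of 13 genes of the MEKK3, ERK5 and MEF2 pathway and of the CCM complex that restrains it, 9 were higher and 2 lower (median 0.386), or 8 and 2 of 12 with the minimum in each type. *Pdcd10* (1.56 against 1.19) and *Mef2a* (1.54 against 0.893) were higher and *Mef2c* lower (0.454 against 0.594).

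Downstream, 4 of 10 nitric oxide genes were higher and 4 lower in all 4 libraries (median 0.0415), where 39.3% and 19.3% of all genes compared were. With the minimum in each type these were 4 and 3 of 9, against 38.4% and 19.1% of all genes. The counts of the other lists are to be read against the same shares. *Ddah1* (1.06 against 0.395) and *Ddah2* (5.00 against 3.86), which clear inhibitors of nitric oxide synthase, were higher. *Nosip*, a binding partner of the synthase, did not differ in 1 direction (0.305 against 0.280). Of 8 coagulation genes, 3 were higher and 2 lower, or 2 and 2 of 7 without *Thbd*, the one below the minimum in chamber EdCs. The thrombin receptor *F2r* was higher (1.98 against 1.47), the pathway inhibitor *Tfpi* lower (0.303 against 1.25), and *Vwf* neither (0.396 against 0.388). Of 6 polycystin and cilium genes, 1 was higher (*Pkd1*) and 1 lower, the latter below the minimum in cushion EdCs, and *Kif3a*, *Tulp3* and *Ift88* were at 0.331, 0.125 and 0.112 in cushion EdCs against 0.326, 0.134 and 0.108 in chamber EdCs. Of the genes reported as lowered by KLF2, only *Kdr* and *Edn1* could be compared, and *Edn1*, the vasoconstrictor endothelin, was higher in cushion EdCs in all 4 libraries (1.65 against 0.795). Of 4 heat shock genes, 3 were higher in all 4 libraries (median 0.273), *Hspb1* at 2.53 against 0.869, *Hsp90aa1* at 8.74 against 7.58 and *Dnajb1*, named after its values were seen, at 0.409 against 0.322. *Hspa8* was higher in 3 libraries (17.2 against 16.7).

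**Figure D3:**
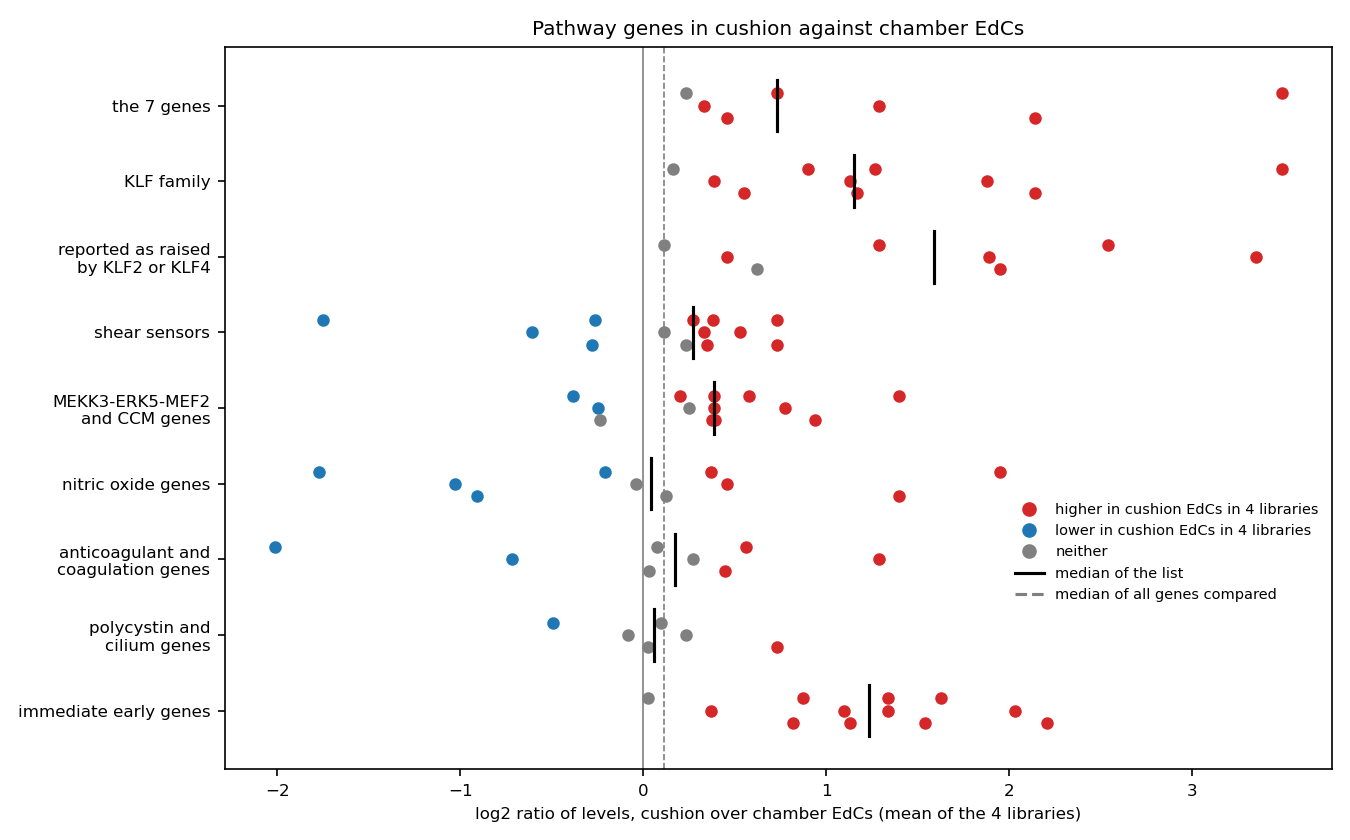
Log2 ratio of levels in cushion over chamber EdCs (x axis, mean of the 4 within-library ratios after adding 0.01 to each level) for genes of 9 lists. Each point is a gene, red where higher in cushion EdCs in all 4 libraries, blue where lower in all 4 and grey otherwise, with black bars at the list medians and a dashed line at the median of all genes compared (0.117). Points far to the right include genes below 0.05 in chamber EdCs. KLF family genes lie mostly to the right, and nitric oxide genes on both sides.

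Over 9 named cell types of the control libraries, the genes whose levels ran most like those of each member among 6006 genes were named by Pearson's r on log2 levels. For *Klf2* they were *Arhgef1* (0.969), *Elmo1* (0.948) and *Ripk3* (0.942), and for *Klf4* they were *Ndel1* (0.958), *Ncoa7* (0.946) and *Jam2* (0.940). *Nos3* ran with *Prkch* (0.987) and the endothelial genes *Fgd5* (0.980) and *Rasip1* (0.979). *Piezo1* ran with *Tek* (0.947), *Flt1* (0.930) and *Nos3* (0.926), another of the 7 genes. *Thbd* ran with *Plpp1* (0.930), *Nts* (0.916) and *Fam43a* (0.915), *Pkd1* with *Ptgis* (0.989), *Tmem263* (0.972) and *Ppfibp1* (0.970), and *Pkd2* with *Nnat* (0.981), *Usp22* (0.971) and *Rhobtb3* (0.970). The 9 points share libraries and depth, so these values describe likeness over cell types and nothing else.

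The second question was whether loss of *Tie2* in the endocardium moved the flow genes. The targeted gene *Tek*, which encodes TIE2, held 0.884 and 0.989 UMIs per 10000 in chamber EdCs of libraries 5 and 7 and 0.130 and 0.143 in mutant libraries 6 and 8. In cushion EdCs it held 0.867 and 1.69 against 0.303 and 0.222. The targeted gene was thus low in both libraries labelled *Tie2-cko*, with log2 fold changes of -2.55 (SE 0.184, adjusted p = 0.00562) and -2.47 (SE 0.263, adjusted p = 0.0131) by edgeR's quasi-likelihood test on counts summed per library. Vascular ECs held 0.614 and 0.821 against 0.774 and 0.691 (log2 fold change -0.155, SE 0.295, interval -0.834 to 0.523).

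In the main fit, which had no block, none of the 7 genes passed the adjusted threshold of 0.05 in any cell type tested. *Klf4* in chamber EdCs passed in some other fits without a block, as given with its result. Cell makeup set libraries 5 and 6 apart from 7 and 8 (neural cells 73 and 79 against 14 and 19), a split that crosses the genotypes and that the labels do not name, and with it as a block, which leaves 1 residual degree of freedom, *Klf4* passed in chamber EdCs and *Klf2* and *Klf4* in epicardial cells, as given with each result, where the block called 7.64% of all genes in chamber EdCs and 0.544% in epicardial cells. The background was as sparse, since 0.0087% of 11492 genes were called in chamber EdCs (*Tek* alone), 0.0442% of 11309 in cushion EdCs, 0.033% of 9100 in vascular ECs, 0.0335% of 11945 in epicardial cells and 0 in CMs and MCs. At an unadjusted p under 0.05, 793 genes (6.9%) passed in chamber EdCs, 238 (2.1%) in cushion EdCs, 84 (0.923%) in vascular ECs, 131 (1.1%) in epicardial cells, 70 in CMs and 140 in MCs, and DESeq2 called 2 genes in CMs and 9 in MCs. Both mutant levels were above, or both below, the control levels for 33.2% of genes in chamber EdCs, 27.2% in cushion EdCs and 26.8% in vascular ECs. Of the 7 genes this was so for 2 in chamber EdCs (*Klf4* and *Thbd*, both above), 2 in cushion EdCs (*Klf2* above, *Thbd* below) and 3 in vascular ECs (*Nos3* above, *Piezo1* and *Pkd1* below), counts to be read against that background.

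Among the 3 endothelial types, the interval of *Klf2* was narrowest in cushion EdCs, where its counts were highest. The log2 fold change was -0.00267 (SE 0.133), with a 95% confidence interval of -0.301 to 0.295. The levels of 8.18 and 8.13 against 8.48 and 8.43 did not overlap, but they lay closer together than the error of the fit. In chamber EdCs the log2 fold change was 0.23 (SE 0.233, interval -0.308 to 0.760, adjusted p = 0.9), and it rested on library 8, whose 2.64 stood above the other 3. Without that library it was -0.23. Library 8 also had the highest sum of immediate early genes in chamber EdCs, 6.05 against 3.62, 4.82 and 4.79 in libraries 5, 7 and 6, and the part of these genes in the result was not tested. In vascular ECs the estimate was 0.18 (SE 0.268, interval -0.438 to 0.797). By shares of cells, the mean thinned *Klf2* share of chamber EdCs was 43.2% in control and 46.8% in *Tie2-cko* libraries (exact permutation p = 0.667), and that of cushion EdCs was 75.8% and 75.0% (exact permutation p = 1.00). With 2 libraries against 2, the smallest two-sided exact p is 0.333.

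Among the endothelial types, *Klf4* in chamber EdCs had the largest estimate of the 7 genes. Its summed counts were 44 and 48 UMIs in libraries 5 and 7 and 49 and 93 in mutant libraries 6 and 8, from 379, 590, 137 and 462 cells. Its levels of 0.0743 and 0.0525 against 0.0882 and 0.139 did not overlap. The log2 fold change was 0.98 (SE 0.294, interval 0.305 to 1.65, unadjusted p = 0.00986), and it did not pass adjustment over all genes (adjusted p = 0.55 by edgeR's quasi-likelihood test). The same test called it without the filter on low counts (adjusted p = 0.0253) without library 6 (1.31, adjusted p = 0.0318) and with libraries 5 and 6 as a block against 7 and 8 (0.98, adjusted p = 0.000808), whereas without library 8 the estimate was 0.54. Thinned shares overlapped between genotypes (mean 3.52% against 4.38%, exact permutation p = 0.667), while without thinning, with library 6 the deepest, they were 7.09% and 16.7%. In cushion EdCs, where *Klf4* is abundant (530 to 705 UMIs per library), the estimate was 0.20 (SE 0.163, interval -0.166 to 0.563), and in vascular ECs it was 0.42 with an interval from -1.02 to 1.86.

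*Thbd* in cushion EdCs went the other way. It held 0.169 and 0.151 in control and 0.0956 and 0.115 in *Tie2-cko* libraries, from 81, 94, 39 and 74 UMIs in libraries 5, 7, 6 and 8. The log2 fold change was -0.69 (SE 0.221, interval -1.18 to -0.197, unadjusted p = 0.011), which did not pass adjustment (adjusted p = 1 by edgeR's quasi-likelihood test). Shares of cushion EdCs with a *Thbd* UMI, thinned to 5500 UMIs, were 6.39% in control and 6.19% in *Tie2-cko* libraries on average, with overlapping values. Thinned to 3000 UMIs they were 5.25% and 2.59% and did not overlap (exact permutation p = 0.333). In chamber EdCs the estimate was 0.20 (SE 0.317) and in vascular ECs -0.20 (SE 0.475).

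For the other 4 genes no estimate in the 3 endothelial types stood clear of 0. *Nos3* was -0.23 (interval -0.731 to 0.279) in chamber EdCs, -0.18 (-0.515 to 0.158) in cushion EdCs and 0.11 (-0.546 to 0.768) in vascular ECs. *Piezo1* was 0.26 (-0.146 to 0.668), 0.07 (-0.265 to 0.406) and -0.27 (-0.952 to 0.423) in the same order. *Pkd1* was 0.10 (-0.496 to 0.688), -0.09 (-0.554 to 0.378) and -0.26 (-1.43 to 0.908), and *Pkd2* was 0.28 (-0.310 to 0.869), 0.04 (-0.417 to 0.487) and 0.11 (-0.858 to 1.08). The widest of these intervals, for the polycystin genes in vascular ECs, rest on 5 to 31 UMIs per library and leave changes within them undetectable at this depth.

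**Figure D4:**
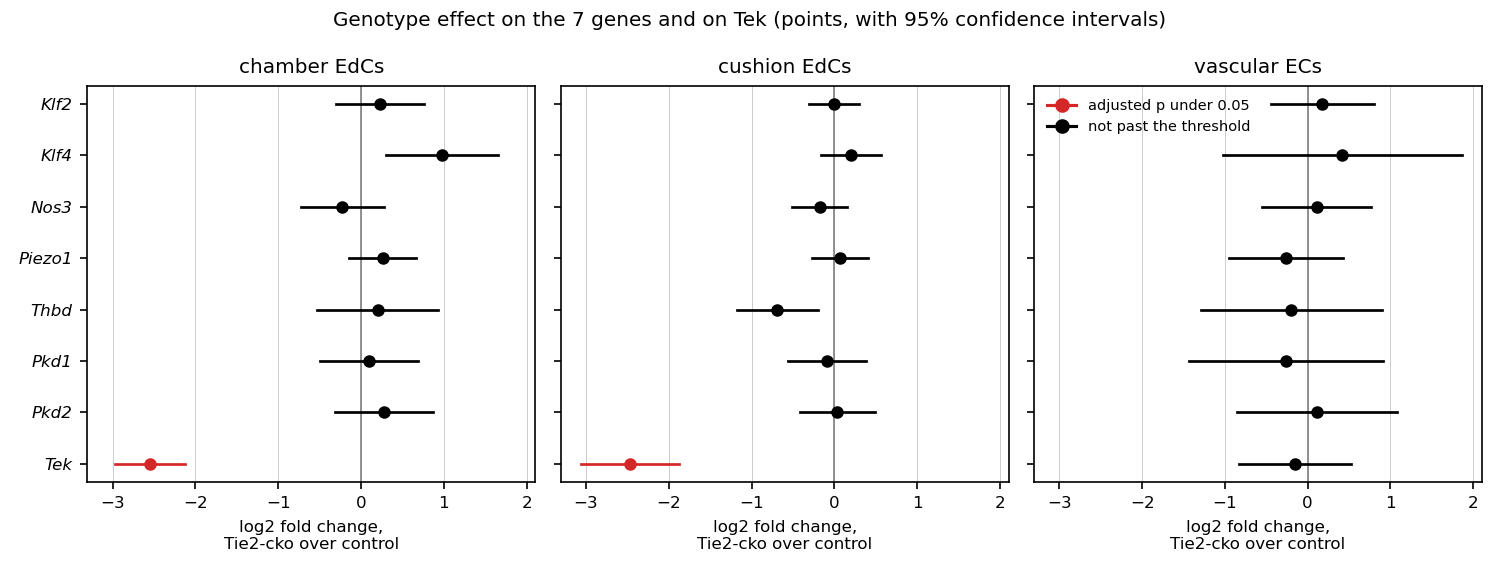
Log2 fold change of *Tie2-cko* over control (x axis) with its 95% confidence interval for the 7 genes and *Tek*, in chamber EdCs, cushion EdCs and vascular ECs, from counts summed per library. Red marks an adjusted p under 0.05, reached by *Tek* in both kinds of EdC (-2.55 and -2.47) and by none of the 7 genes.

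Whether the genotype effect differed between cushion and chamber EdCs was tested with the library as a block, and 0.301% of 11948 genes (36) were called. None of the 7 genes was among them. The effect on *Klf4* was lower in cushion than in chamber EdCs by 0.77 on the log2 scale (-0.772, SE 0.273, interval -1.36 to -0.184, adjusted p = 0.355), -0.208 without library 8 and -1.20 (adjusted p = 0.000301) without library 6. For *Thbd* the difference was -0.89 (SE 0.307, interval -1.55 to -0.229, adjusted p = 0.331) and for *Klf2* -0.19 (SE 0.158, interval -0.527 to 0.151). The unadjusted p by edgeR's quasi-likelihood test was 0.0139 for *Klf4* and 0.012 for *Thbd*, and neither passed adjustment. The share of all genes at such an unadjusted p was not counted, so these values have no background to be read against.

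In epicardial cells, where *Tek* was not called (log2 fold change -0.145, SE 0.152), both KLF genes were higher in both *Tie2-cko* libraries. Of the 11945 genes tested there, 25% did not overlap between genotypes, and *Pkd1* was lower in both *Tie2-cko* libraries. *Klf2* held 0.353 and 0.263 in libraries 5 and 7 and 0.514 and 0.445 in mutant libraries 6 and 8 (log2 fold change 0.64, SE 0.178, interval 0.228 to 1.05, unadjusted p = 0.00744). *Klf4* held 0.111 and 0.0716 against 0.161 and 0.156 (0.72, SE 0.240, unadjusted p = 0.0185). Neither passed adjustment (both adjusted p = 1 by edgeR's quasi-likelihood test). With libraries 5 and 6 as a block against 7 and 8, both did, *Klf2* at 0.66 (adjusted p = 1.75e-06) and *Klf4* at 0.74 (adjusted p = 0.0016) by the same test. The sum of immediate early genes in epicardial cells was 5.91 and 4.34 in control and 7.34 and 7.15 in *Tie2-cko* libraries, and its part in the result was not tested. In MCs *Tek* held 0.140 and 0.287 in libraries 5 and 7 and 0.0401 and 0.0328 in mutant libraries 6 and 8. Its log2 fold change there was -2.35 (SE 0.356), not called (adjusted p = 0.498 by edgeR's quasi-likelihood test). In MCs and CMs the intervals of *Klf2* were -0.757 to 0.378 and -0.128 to 0.452, and those of *Klf4* were -0.313 to 0.471 and -0.329 to 0.482.

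Of the 90 pathway genes, *Tek* alone was called between genotypes in an endothelial type in the main fit. At an unadjusted p under 0.05, 4 of 11 KLF family genes tested passed in chamber EdCs (6.9% of all genes did), *Klf4*, *Klf6* (log2 fold change 0.63), *Klf7* (0.48) and *Klf11* (1.17), and the family's median was 0.33 against 0.00651 over all genes. In cushion EdCs 0 of 13 passed and the median was 0.10. Of the 12 immediate early genes, 2 passed in chamber EdCs, *Dusp1* (0.74) and *Atf3* (0.50), and 6 lay above and 0 below in both mutant libraries, where 33.2% of all genes did not overlap (list median 0.315). *Jun* (0.31, SE 0.144), *Egr1* (0.445, SE 0.364) and *Fos* (0.32, SE 0.624) did not pass there. In cushion EdCs 1 of 12 passed, *Egr1* (0.50, SE 0.185), with 4 above and 0 below against 27.2% of all genes (list median 0.222). The part of these genes in the KLF values was not tested. Among the genes reported as raised by KLF2 or KLF4, *Tek* is the deleted gene and was left out. Of the other 8 tested in cushion EdCs, 3 passed at an unadjusted p (2.1% of all genes did), and these lay below control (*Thbd*, *Aqp1* at -0.64 and *Ass1* at -0.39). The median of the 8 was -0.271 against 0.0041 over all genes tested. In chamber EdCs 1 of 7 passed, and their median was 0.00899.

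Among genes reported as lowered by KLF2, *Edn1* had the largest estimate in chamber EdCs, 0.476 and 0.377 UMIs per 10000 in libraries 5 and 7 and 1.09 and 1.24 in mutant libraries 6 and 8. Its log2 fold change was 1.34 (SE 0.227, interval 0.824 to 1.87, adjusted p = 0.222 by edgeR's quasi-likelihood test). *Edn1* in cushion EdCs overlapped (0.14, SE 0.223), as did *Kdr* in chamber EdCs (0.20, SE 0.139). Of the nitric oxide genes 2 of 10 passed at an unadjusted p in chamber EdCs (6.9% of all genes did), both subunits of the nitric oxide receptor guanylate cyclase, *Gucy1b1* (0.87, SE 0.146, adjusted p = 0.222) and *Gucy1a1* (0.56, SE 0.231). *Ddah1*, *Ddah2* and *Nosip* lay at 0.15, 0.06 and -0.00161 there. Of the coagulation genes 2 of 8 passed, *F2r* (0.51, SE 0.168) and *Vwf* (-0.75, SE 0.202), and *Tfpi* lay at -0.03. In cushion EdCs 2 of 8 coagulation genes passed, *Thbd* and *Entpd1* (-0.54, SE 0.148), and 2 of 11 nitric oxide genes, *Ass1* and *Gch1* (-0.83, SE 0.348), all lower in both mutant libraries and with an adjusted p of 1 by edgeR's quasi-likelihood test, where 2.1% of all genes passed.

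The remaining lists gave little. In chamber EdCs 1 of 14 shear sensors (*S1pr1*, 0.48), 1 of 13 genes of the MEKK3 list (*Hdac5*, 0.84) and 1 of 6 polycystin and cilium genes (*Kif3a*, 0.49) passed at an unadjusted p, against 6.9% of all genes, and in cushion EdCs none of these 3 lists did. *Pecam1* and *Cdh5* lay at 0.09 and 0.04 in chamber EdCs and at 0.02 and 0.08 in cushion EdCs. *Mef2a* lay at 0.16 and 0.11. Of the heat shock genes, *Hspb1* in cushion EdCs passed at an unadjusted p (0.81, SE 0.134, adjusted p = 0.17 by edgeR's quasi-likelihood test). *Klf6*, *Klf11*, *Gucy1a1*, *Gucy1b1*, *Hdac5*, *Dusp1*, *Atf3*, *Entpd1*, *Gch1* and *Vcam1* were named after their values were seen. In vascular ECs 1 of 4 genes reported as lowered by KLF2 and 1 of 10 immediate early genes tested passed (0.923% of all genes). These were *Vcam1* (1.70, SE 0.609) and *Fos* (1.71, SE 0.618), both with an adjusted p of 1 by edgeR's quasi-likelihood test. As a mean over cells, *Fos* there held 0.101 and 0.112 in libraries 5 and 7 and 0.195 and 0.117 in mutant libraries 6 and 8.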

How the data were processed

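Single-cell libraries of E10.5 hearts were made with 10x chemistry. The deposited UMI counts were made by the authors with Cell Ranger (6.1.2 by the file headers) against mm10. Here barcodes with at least 500 genes, 1000 UMIs and at most 10% mitochondrial UMIs were kept, doublets were removed with Scrublet (scanpy 1.11.5), and cells were clustered with Seurat 5.3.0 (2000 variable genes without the listed genes, 30 components, resolution 0.8). Clusters were named from fixed markers, with thresholds set after the clusters were seen; those with under 0.333 of their libraries' median UMIs stayed unnamed. The UMIs of each cell type were added up within a library and tested with edgeR 4.0.16 (quasi-likelihood, TMM, Benjamini-Hochberg over all genes, R 4.3.3), after a test on simulated data. DESeq2 1.42.0 was an alternative. Motifs were read from RefSeq promoters. Named were the members, *Tek*, called pathway genes, the 3 highest non-members of each list, the 3 genes most like each member, *Fos*, *Egr1*, *Jun* and markers. Members and lists were chosen with earlier results of these data known. Intervals on shares cover counting error only.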

Additional observations from a re-analysis of the deposited data

Results flagged for a closer look

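The *Tie2-cko* effect on *Tek* differed between endothelial types by a test of the difference itself with the library as a block. It was lower in chamber EdCs than in vascular ECs by -2.41 on the log2 scale (SE 0.289, adjusted p = 0.00955 by edgeR's quasi-likelihood test), and lower in cushion EdCs than in vascular ECs by -2.23 (SE 0.229, adjusted p = 0.00852 by the same test). Between cushion and chamber EdCs, 36 genes differed in their genotype effect, and none of the 7 flow genes was among them.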

How the results depend on the processing

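The labels give the libraries of the 2 genotypes no shared replicate numbers and name no pairs, so no pairing from the design could be fitted. A block of libraries 5 with 6 and 7 with 8, taken from their cell makeup in earlier results, leaves 1 residual degree of freedom and called 878 genes in chamber EdCs, 87 in cushion EdCs, 51 in vascular ECs, 72 in CMs, 104 in MCs and 65 in epicardial cells. Under it 1 of the 7 genes passed in chamber EdCs (*Klf4*, adjusted p = 0.000808) and 2 in epicardial cells (*Klf2*, 1.75e-06, and *Klf4*, 0.0016).

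Counts of genes called moved with most settings, and the cause was not tested. In chamber EdCs the count of 1 became 21 with DESeq2, 161 without the filter on low counts and 26 to 56 leaving out a library, and that of the 7 genes became 1 without the filter and 0 to 1 leaving out a library. In cushion EdCs the count of 5 became 29 without the filter, 3 to 52 leaving out a library, and 0 with doublets kept, at resolutions 0.4 and 1.2 and with listed genes kept for clustering, where *Tek* lost its call (adjusted p = 1, 1, 0.0619 and 0.106). In vascular ECs the count of 3 became 6, 25 and 0 (DESeq2, no filter, and both the stricter cell filter and resolution 1.2), and 2 to 62 leaving out a library. CMs had 2 and MCs 9 with DESeq2, MCs 24 without the filter, CMs 0 to 2 and MCs 1 to 13 leaving out a library. In epicardial cells the count of 4 became 7 with DESeq2, 2 without the filter, 0 with the stricter cell filter, 1 with doublets kept and 6 to 63 leaving out a library. The 36 genes that differed between cushion and chamber EdCs became 3 with DESeq2, 96 without the filter, 77 with the stricter cell filter, 0 with doublets kept, 1 and 86 at resolutions 0.4 and 1.2, and 67 to 294 leaving out a library, with 0 to 2 of the 7 genes. For *Thbd*, the difference between cushion and chamber EdCs kept its side of the threshold in all 12 alternatives. A lone library of a genotype was assumed to vary like the other genotype.

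The cushion to chamber ratio of *Nos3* was 1.25 with doublets kept and 1.27 at resolution 0.4. That of *Piezo1* was 1.13 and 1.16 there and 1.38 with the stricter cell filter. When a cluster of low UMI counts joined the chamber EdCs, which was tried only after seeing the data, ratios were 1.88 for *Nos3*, 1.98 for *Piezo1*, 2.81 for *Pkd1* and 1.93 for *Pkd2*. The ratios of *Klf2* and *Klf4* stayed within the spread of the libraries under every alternative run.

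Log2 fold changes that turned, none of them called, are given with their range when 1 library was left out. In chamber EdCs, *Nos3* ran from -0.528 to 0.169, *Pkd1* from -0.18 to 0.4 and *Pkd2* from -0.0439 to 0.658, each turning without library 7, and *Klf2* ran from -0.23 to 0.576 and *Thbd* from -0.104 to 0.444, both turning without library 8. In cushion EdCs, *Pkd1* ran from -0.247 to 0.075 (turning without library 5), *Klf2* from -0.0344 to 0.029 and *Pkd2* from -0.146 to 0.217 (both turning without library 6 or 7). *Klf2* was also 0.0245 with the stricter filter and 0.00938 with listed genes kept, *Piezo1* -0.0705 with doublets kept and -0.0442 at resolution 0.4, and *Pkd2* -0.0132 at that resolution. In vascular ECs, *Klf2* ran from -0.172 to 0.569 (turning without library 5), *Klf4* from -0.54 to 1.45 (without 5 or 6), *Nos3* from -0.0559 to 0.228 and *Thbd* from -0.468 to 0.107 (without 6), and *Tek* from -0.52 to 0.208 (without 7). *Klf2*, *Klf4* and *Pkd2* there were -0.41, -0.222 and -0.175 with the stricter filter and -0.0489, -0.0404 and -0.134 with listed genes kept. The causes were not tested. Without thinning, the genotype difference in shares of cells turned for *Klf2* in cushion EdCs (1.57 percentage points) and *Nos3* in chamber EdCs (6.7). Vascular ECs gave no value at resolution 0.4 or with doublets kept, where they joined the cushion cluster. With the minimum level asked of each type, also tried after seeing the data, the genes reported as raised by KLF2 or KLF4 that were higher in cushion EdCs went from 6 to 3, and the counts of the other 10 lists stayed within 1.5 times. Of 630 alternatives, 523 were counted as the same as the main result, by a rule for each kind of result. A log2 fold change had to keep its direction and its side of the threshold. A count had to stay within 1.5 times, and a cushion to chamber ratio within the SD over libraries. With 2 libraries a genotype, and few UMIs of *Thbd*, *Pkd1* and *Pkd2*, small changes were not detectable.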

Other observations

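*Klf2* was also found in a cluster of 1539 cells with chamber markers such as *Emcn* and *Irx5* and a median of 1883 UMIs, which was left unnamed for its depth. Its level there was 1.22, 1.08, 1.74 and 1.28 UMIs per 10000 in libraries 5, 7, 6 and 8, below the chamber EdCs of each library except library 6. *Klf4* held 0.172 and 0.326 in libraries 5 and 6 in the epithelial cluster led by *Nepn* and *Epcam*, whose cells came almost wholly from these libraries (177 and 180 of 366). *Thbd* in an unnamed cluster of 116 cells led by *Prlr*, *Foxe1* and *Nkx2-1* differed widely between libraries. It held 0.628 in library 5 (25 cells), 0.0893 in library 6 (29 cells) and 0.206 in library 8 (57 cells). In the epithelial cluster led by *Nkx2-1* and *Wnt7b* it held 0.164 and 0.162 in libraries 5 and 6 (78 and 77 cells). These genes and clusters were singled out after their values were seen.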
